A study of Mus musculus with 3 samples.

Results

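Ly6C-high monocytes were examined in single-cell RNA sequencing of live CD45+ cells sorted from mouse pancreas, CD45 being the surface antigen shared by leukocytes. A barcode, the sequence tag of a droplet, was kept when it held at least 1000 unique molecular identifiers (UMIs, each standing for a counted transcript molecule) and at most 30% of them came from mitochondrial genes. A kept barcode was called a Ly6C-high monocyte when it held at least 2 UMIs of Ly6c2, at least 1 UMI of Ccr2 and of Csf1r, fewer than 5 UMIs of Ccl5, Cxcl9 and Nos2 together, and no UMI of Arg1, of the complement genes C1qa, C1qb and C1qc, of the B cell gene Cd79a, of the T cell genes Cd3e and Cd3d, or of the plasmacytoid dendritic cell gene Siglech. This rule gave 330 cells among 14302 kept barcodes. They came from 3 libraries, 1 from control mice given PBS, 1 from mice 3 days after WGP (3-day WGP) and 1 from mice 7 days after WGP (7-day WGP). The agent WGP consists of whole particles of yeast beta-glucan, which the study injected into the peritoneal cavity. The methods describe young adult C57BL/6 mice of both sexes, the labels list no altered gene for these groups, and neither source says how many animals were pooled in a library. With 1 library per group there was no replicate, so no test was made, and every interval below is a 95% interval that covers counting error only.

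Ly6C-high, or classical, monocytes are made in the bone marrow, leave it through the chemokine receptor CCR2, and enter inflamed tissue, where they can turn into macrophages or antigen-presenting cells. Interferon-gamma, a cytokine of T and NK cells, acts on monocytes through transcription factors such as IRF1, and it raises guanylate-binding proteins, immunity-related GTPases and the MHC class II molecules that present peptides to CD4 T cells. Ly6C-low, or patrolling, monocytes are the other main blood monocyte type of the mouse and are kept alive by the transcription factor NR4A1.

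The 3 libraries held from 48219246 to 56849043 UMIs over all barcodes, and the median depth of a Ly6C-high monocyte was 10143 UMIs in PBS against 13385 at 3 days and 9749 at 7 days. Summed over members, the depth was 586902 UMIs in PBS, which is the thinnest of the 3, 949749 at 3 days and 2058992 at 7 days. Cells of females carry the noncoding RNA Xist and cells of males carry chromosome Y transcripts, and the 2 kinds were spread unevenly over the libraries. In PBS, 47 of the 53 members held Xist alone and 3 held chromosome Y transcripts alone, in 3-day WGP the numbers were 4 and 47 of 74, and in 7-day WGP they were 80 and 79 of 203. In 3-day WGP against PBS, the treatment and the sex of the cells therefore cannot be told apart. The comparison of 7-day WGP with PBS was repeated within Xist cells and that of 7-day with 3-day WGP within chromosome Y cells. Pairs of libraries shared from 1 to 9 kept barcodes, and 0 of these were members.

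Markers were checked against the name of these cells, beginning with Plac8 and Vcan, which the rule did not use. Plac8, a marker of monocytes and their precursors, was found in 53 of 53 cells in PBS, 73 of 74 in 3-day WGP and 202 of 203 in 7-day WGP, but B cells have it too, in 73.8%, 73.8% and 81.0% of them. With every cell thinned to 1000 UMIs, Plac8 was found in 96.2%, 94.6% and 96.1% of members against 44.6%, 38.8% and 55.9% of B cells. Vcan, which encodes the matrix proteoglycan versican, was found in 12, 42 and 94 members in that order, so that most PBS members showed no UMI of it. After thinning, Vcan was found in 3.77%, 18.9% and 17.2% of members and in 0 of 1817, 0 of 1046 and 0 of 531 B cells, which allows shares of up to 0.203%, 0.352% and 0.692% (exact 95% limits). Ly6c2, the gene of the Ly6C antigen, had a median of 11 UMIs per cell in PBS, 10 at 3 days and 14 at 7 days, and Ccr2 had 9, 21.5 and 12. Those medians describe the rule and are no finding. Markers of lymphocytes, mast cells, islet and acinar cells were low or missing, on the scale of CPM, the UMIs of a gene per 1000000 UMIs of all members of that library. Those of other myeloid cells were not. In PBS, 3-day WGP and 7-day WGP, the 16 resident macrophage genes summed to 1457, 2409 and 2051 CPM with 6 of them at 0 in every library, the 14 inflammatory macrophage genes to 1770, 3886 and 5759 CPM, and the 11 neutrophil genes to 104, 15906 and 200 CPM. Summed over members, 8 T cell genes reached 0, 3.16 and 5.34 CPM in PBS, 3-day WGP and 7-day WGP, and 5 mast cell genes and 4 islet hormone genes were at 0 in every library. The 7 B cell genes summed to 325, 266 and 169 CPM. These list sums count genes of the rule too. The rule set C1qa, C1qb and C1qc to 0, and they are among the 6 resident macrophage genes at 0. It did the same to Cd3e and Cd3d of the T cell genes and to Cd79a of the B cell genes. It also limited Ccl5, Cxcl9 and Nos2 of the inflammatory genes. The low or missing values of these rule genes are therefore no check of the name. The 11 digestive enzyme genes of acinar cells summed to between 75 and 104 CPM in members against 6820 to 13012 CPM in droplets without cells. By these genes, free RNA was placed at between 0.588% and 1.13% of member UMIs.

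The limits of the rule cut through ranges of values. Barcodes that met all else with 1 UMI of Ly6c2, just outside, numbered 14, 11 and 19 in that order of libraries, and those with 2 UMIs, just inside, numbered 3, 8 and 13. The limit on Ccl5, Cxcl9 and Nos2 mattered mostly in 7-day WGP, where 6 barcodes held 4 UMIs and stayed inside, 5 barcodes held 5 UMIs and fell outside, and 25 barcodes outside held at least 100. A sum of 1 UMI over the C1q genes kept out 16, 30 and 39 barcodes that met all else. Reads of Ly6c2 can be split with its neighbour Ly6c1, with which it shared 6.23% of windows of 100 bases within the last 500 bases of its 3′ end.

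Ly6C-high monocytes made up 1.01% of kept barcodes in PBS (53 of 5249, interval 0.757% to 1.32%), 1.52% in 3-day WGP (74 of 4879, 1.19% to 1.90%) and 4.86% in 7-day WGP (203 of 4174, 4.23% to 5.56%). The 7-day share was 4.82-fold the PBS share (log2 ratio 2.27, interval 1.84 to 2.70) and 3.21-fold the 3-day share (1.68, 1.30 to 2.06), while the log2 ratio of the 3-day share to the PBS share was 0.59 (0.08 to 1.09). Among barcodes with at least 1 UMI of Csf1r, the receptor of the monocyte growth factor, and no lymphocyte or plasmacytoid gene of the rule, members made up 5.90% in PBS, against 8.83% at 3 days and 13.1% at 7 days. Within Xist barcodes the share was 2.31% in PBS, 0.835% in 3-day WGP, where it rests on 4 cells, and 6.62% in 7-day WGP. Within chromosome Y barcodes it was 0.173% in PBS, where it rests on 3 cells, 1.87% at 3 days and 4.24% at 7 days. The 7-day share was thus above the PBS share in both kinds of barcode, 2.87-fold in Xist and 24.5-fold in chromosome Y barcodes. The 3-day share lay below PBS among Xist barcodes and above it among chromosome Y barcodes. The plot of shares shows these values with their intervals.

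**Figure D1:**
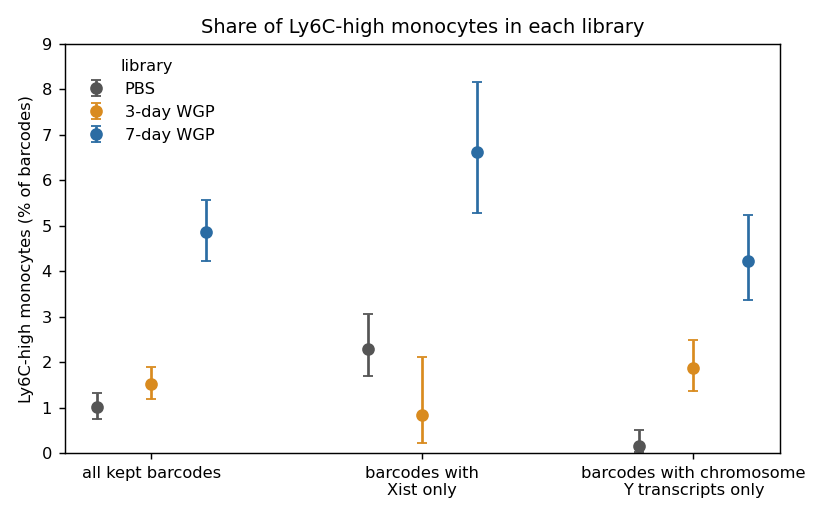
Share of kept barcodes that were Ly6C-high monocytes (%, vertical axis) in PBS, 3-day WGP and 7-day WGP, for all kept barcodes, for barcodes with Xist alone and for barcodes with chromosome Y transcripts alone; points are shares and bars are exact 95% binomial intervals. The 7-day point is the highest in each of the 3 sets, at 4.86%, 6.62% and 4.24%, and the order of PBS and 3-day WGP differs between Xist and chromosome Y barcodes.

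Among the most abundant genes of these cells, several stayed level. Lyz2, the gene of lysozyme, which had the most UMIs outside mitochondrial and ribosomal-protein genes, stood at 26998 CPM in PBS, 27963 CPM in 3-day WGP and 28014 CPM in 7-day WGP. Tyrobp, an adaptor of activating receptors, stood at 3300 CPM in PBS, 3445 CPM in 3-day WGP and 3448 CPM in 7-day WGP. Plac8 was at 4495 CPM in PBS, 4163 CPM in 3-day WGP and 5302 CPM in 7-day WGP. All log2 ratios of these 3 genes between libraries lay within 0.35 of 0. The list of 26 nuclear genes of oxidative phosphorylation had no member past 2-fold in any comparison, with medians of 0.00 in 3-day WGP against PBS, 0.02 in 7-day WGP against PBS and -0.02 between the WGP libraries. In this list and throughout a gene was called when the log2 ratio of CPM + 10 was at least 1 in size, among 2852 genes with a mean of at least 50 CPM over the libraries. List medians are on that scale. Ratios of single genes are of CPM with nothing added, except that counts under 3 UMIs were raised to 3. Because the mean spans the PBS and both WGP libraries, a gene under 50 CPM in PBS could enter through its WGP levels. Counts of higher genes and list medians against PBS can lean upward for that reason.

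In 3-day WGP against PBS, 119 genes (4.17%) were called, 83 genes (2.91%) higher and 36 genes (1.26%) lower. In 7-day WGP against PBS, 133 genes (4.66%) were called, 97 genes (3.4%) higher and 36 genes (1.26%) lower. Fewer genes, 37 (1.3%), were called between the WGP libraries, with 23 genes (0.806%) called higher and 14 genes (0.491%) lower in 7-day against 3-day WGP. Within Xist cells, 59 genes (2.07%) were higher and 28 genes (0.982%) lower in 7-day WGP than in PBS, and within chromosome Y cells 35 genes (1.23%) were higher and 26 genes (0.912%) lower in 7-day than in 3-day WGP. The median over all 2852 genes was -0.04 for 3-day WGP against PBS, -0.07 for 7-day WGP against PBS and -0.02 for 7-day against 3-day WGP. The balance of higher and lower calls depended on the settings. Higher genes made up 69.7% of the calls of 3-day WGP against PBS, 79.5% with the scaling factors of TMM, 50% with a filter at 10 CPM and 46.8% with no filter beyond 1 UMI. For 7-day WGP against PBS they made up 72.9%, 85.8% with TMM factors, which moved the median of all genes from -0.07 to 0.07, 59.4% with a filter at 10 CPM and 57.0% with no filter. Between the WGP libraries they made up 62.2%, with alternatives from 54.5% with 50 CPM added to 85.7% without the members that carry other programs. Both comparisons with PBS share its 53 cells.

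Among the genes that define classical monocytes, most were level and a few moved apart. The list had 13 genes outside the rule that could be compared, of which 1 was called higher in 3-day WGP than in PBS and 1 higher and 1 lower in 7-day WGP than in PBS, with medians of 0.26 and 0.24. Vcan was the gene called higher at both times, at 57.9 CPM in PBS, 273 CPM in 3-day WGP and 221 CPM in 7-day WGP. Its log2 ratio was 2.23 (1.72 to 2.80) at 3 days and 1.93 (1.43 to 2.48) at 7 days, where it was 1.22 within Xist cells. F13a1, the gene of the coagulation factor XIII A subunit, was at 617 CPM in PBS, 406 CPM in 3-day WGP and 230 CPM in 7-day WGP. It was the gene called lower at 7 days, with a log2 ratio of -1.42 (-1.63 to -1.22), and -1.44 within Xist cells. Fn1, the gene of fibronectin, was at 1026 CPM in PBS, 1235 CPM in 3-day WGP and 604 CPM in 7-day WGP. It was the list's gene called lower between the WGP libraries, at -1.03 (-1.15 to -0.92), and -1.09 within chromosome Y cells.

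**Figure D2:**
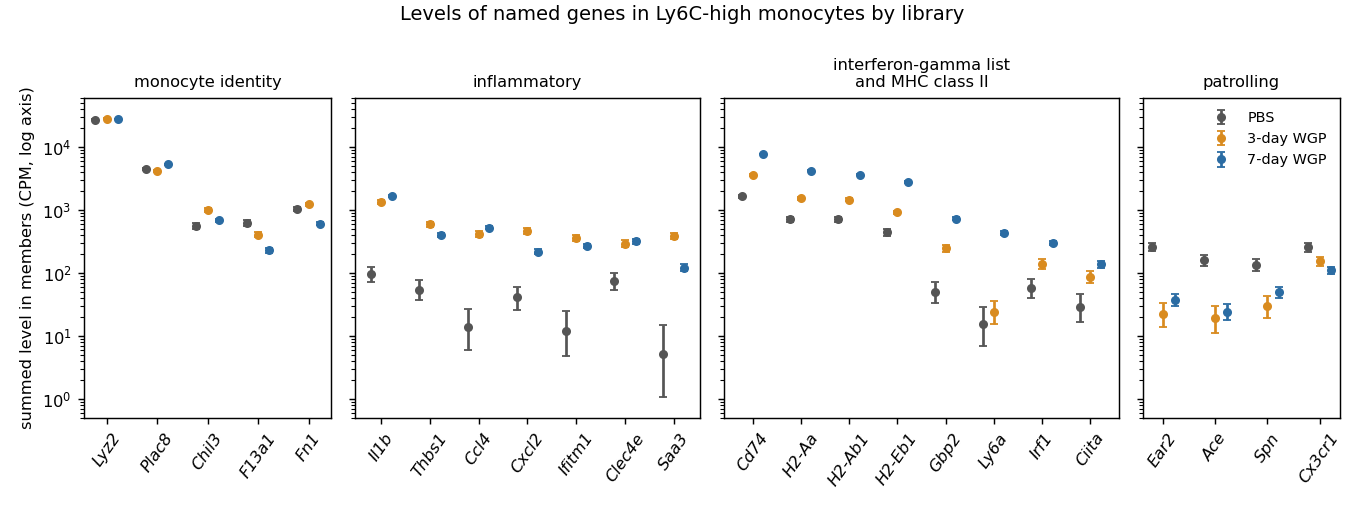
Summed level of named genes in Ly6C-high monocytes (CPM, log axis) in PBS, 3-day WGP and 7-day WGP, grouped as monocyte identity, inflammatory, interferon-gamma with MHC class II, and patrolling genes; points are CPM of the summed counts and bars are exact 95% Poisson intervals, hidden where smaller than the point. Lyz2 and Plac8 stay level, Il1b stands at 95.4 CPM in PBS against 1337 and 1679 CPM after WGP, Gbp2 steps up from 49.4 to 244 and 729 CPM, and Ear2 is highest in PBS at 259 CPM.

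A set of inflammatory genes was higher in Ly6C-high monocytes at both times after WGP. Il1b, the gene of the cytokine interleukin-1 beta (chromosome 2, 129364570 to 129371139, GRCm38), was at 95.4 CPM in PBS, 1337 CPM in 3-day WGP and 1679 CPM in 7-day WGP, and was found in 17 of 53, 53 of 74 and 152 of 203 cells. The PBS level lay far below both WGP levels, which were close to each other. The log2 ratio to PBS was 3.81 (3.42 to 4.22) at 3 days and 4.14 (3.76 to 4.54) at 7 days, and 3.36 at 7 days within Xist cells. With every cell thinned to 1000 UMIs, Il1b was found in 9.43% of members in PBS, 44.6% at 3 days and 50.7% at 7 days, against 0.220%, 0.574% and 0.942% of B cells, which should lack it. The median B cell held 4415, 6191.5 and 5418 UMIs before thinning.

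Other inflammatory genes shared the step from PBS, and some were highest at 3 days. Thbs1, the gene of the adhesive glycoprotein thrombospondin-1, was at 54.5 CPM in PBS, 593 CPM in 3-day WGP and 397 CPM in 7-day WGP (log2 ratios to PBS 3.44 and 2.86). Ifitm1, an interferon-induced transmembrane protein, was at 11.9 CPM in PBS, 357 CPM in 3-day WGP and 267 CPM in 7-day WGP (4.90 and 4.49), and its PBS level rests on 7 UMIs. Ccl4, an inflammatory chemokine, was at 13.6 CPM in PBS, 414 CPM in 3-day WGP and 526 CPM in 7-day WGP (4.92 and 5.27), with a UMI in 3, 23 and 79 cells. These 3 genes were higher after WGP at both times, and within Xist cells the 7-day ratios were 2.46 for Thbs1, 3.84 for Ifitm1 and 3.95 for Ccl4. In 3-day WGP, 27 of 74 cells had a UMI of Ifitm1, and 1 cell held 24.5% of them. The same cell held 16.8% of the Ccl4 UMIs and 38 UMIs of the dendritic cell genes Flt3, Zbtb46 and Cd209a. Cxcl2, a chemokine that attracts neutrophils, was at 40.9 CPM in PBS, 463 CPM in 3-day WGP and 219 CPM in 7-day WGP, so that the 7-day level was lower than the 3-day level (log2 ratio -1.08, -1.28 to -0.89). The stress-induced gene Ier3, for which 1 PBS cell held 63.6% of the UMIs, had the same order, at 75.0 CPM, 576 CPM and 256 CPM (-1.17 between the WGP libraries, -1.35 to -0.99, and -0.94 within chromosome Y cells). Saa3, an acute-phase protein of inflamed tissue, was at 5.11 CPM in PBS on 3 UMIs, 386 CPM in 3-day WGP and 122 CPM in 7-day WGP, with a 3-day log2 ratio to PBS of 6.24 (4.68 to 8.52). Saa3 reached 4205 and 4357 CPM in the free RNA of the WGP libraries, above its level in members. After thinning it was found in 12.2% of members and 1.91% of B cells in 3-day WGP, and in 7.39% of members and 3.39% of B cells in 7-day WGP.

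By list, 5 of 14 genes of NF-kB feedback and survival were called higher and 1 lower in 3-day WGP than in PBS (median 0.73), and 8 of 14 higher and 0 lower in 7-day WGP (median 1.05, 0.82 within Xist cells). Marcksl1, a regulator of the actin cytoskeleton on that list, was at 39.2 CPM in PBS, 236 CPM in 3-day WGP and 225 CPM in 7-day WGP. Of 7 chemokine ligands, 4 were called higher at each time and 1, Cxcl10, lower at 3 days, with medians of 1.02 and 1.42. Ccl2, the ligand of CCR2, was at 66.5 CPM in PBS, 174 CPM in 3-day WGP and 210 CPM in 7-day WGP. The 8 cytokine and inflammasome genes had 2 called higher at each time, Il1b and Osm, the gene of the cytokine oncostatin M (47.7 CPM in PBS, 145 CPM in 3-day WGP and 128 CPM in 7-day WGP). Of 13 immediate early and heat shock genes, which also respond to tissue digestion, 4 were called higher at 3 days and 2 at 7 days (medians 0.53 and 0.74). Dusp1, a phosphatase that turns off MAP kinases, was at 448 CPM in PBS, 1594 CPM in 3-day WGP and 1373 CPM in 7-day WGP, and Atf3, a stress-induced transcription factor, was at 223 CPM in PBS, 609 CPM in 3-day WGP and 850 CPM in 7-day WGP. The part of handling in these levels was not tested.

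A few genes that sense fungal and microbial matter were higher. Of the 12 genes of glucan and microbial sensing that could be compared, 3 were called higher at 3 days and 3 at 7 days, with medians of 0.23 and 0.35. Over all 2852 genes, 2.91% and 3.4% were called higher at these times. Clec4e encodes Mincle, a C-type lectin that recognises fungal and mycobacterial glycolipids, and was at 73.3 CPM in PBS, 293 CPM in 3-day WGP and 316 CPM in 7-day WGP. Its log2 ratio to PBS was 2.00 (1.53 to 2.50) at 3 days and 2.11 (1.66 to 2.59) at 7 days, and 1.97 at 7 days within Xist cells. Cd14, a co-receptor of Toll-like receptors, was at 135 CPM in PBS, 355 CPM in 3-day WGP and 454 CPM in 7-day WGP. Among 13 chemokine receptor and adhesion genes outside the rule, 2 were called higher at 3 days, and 2 higher and 1 lower at 7 days (medians 0.24 and -0.04). Ccr1, a receptor of inflammatory chemokines, was at 42.6 CPM in PBS, 182 CPM in 3-day WGP and 185 CPM in 7-day WGP (log2 ratio 2.12 at 7 days, and 0.97 within Xist cells). Cx3cr1, the fractalkine receptor of patrolling monocytes and tissue macrophages, ran the other way, at 254 CPM in PBS, 155 CPM in 3-day WGP and 110 CPM in 7-day WGP.

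MHC class II genes stood far higher in 7-day WGP than in PBS, with 3-day WGP between them. H2-Aa and H2-Ab1 encode the chains of the I-A molecule and H2-Eb1 the beta chain of I-E. H2-Aa was at 705 CPM in PBS, 1519 CPM in 3-day WGP and 4189 CPM in 7-day WGP. H2-Ab1 was at 707 CPM in PBS, 1453 CPM in 3-day WGP and 3647 CPM in 7-day WGP. H2-Eb1 was at 443 CPM in PBS, 916 CPM in 3-day WGP and 2786 CPM in 7-day WGP. Log2 ratios to PBS were thus near 1 at 3 days and, at 7 days, 2.57 (2.43 to 2.72) for H2-Aa, 2.37 (2.22 to 2.51) for H2-Ab1 and 2.65 (2.47 to 2.84) for H2-Eb1. The 3-day ratios depended on the rule, and with at least 4 UMIs of Ly6c2 required they were 0.42 for H2-Aa, 0.33 for H2-Ab1 and -0.13 for H2-Eb1, while the 7-day ratio of H2-Eb1 was 2.33 there. Within Xist cells the 7-day ratio of H2-Aa was 2.33, and within chromosome Y cells its ratio to 3-day WGP was 1.58. Cd74, the invariant chain that escorts MHC class II molecules, was at 1648 CPM in PBS, 3566 CPM in 3-day WGP and 7721 CPM in 7-day WGP. Ciita, the transcriptional activator of these genes, was at 29.0 CPM in PBS, 86.3 CPM in 3-day WGP and 137 CPM in 7-day WGP. Of the 8 list members compared, 5 were called higher at 3 days and 6 at 7 days, and 4 were higher in 7-day than in 3-day WGP (medians 1.03, 2.07 and 0.98), with 0 lower in each. The 7-day median against PBS was 1.56 within Xist cells. After thinning, H2-Aa was found in 17.0% of members in PBS, 31.1% at 3 days and 57.6% at 7 days, against 5.29% to 5.62% of T cells, which make little of it in mice.

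Most genes of the interferon-gamma list were highest at 7 days. Of 14 list members compared, 6 were called higher and 1 lower in 3-day WGP than in PBS (median 0.73), 12 higher and 0 lower in 7-day WGP than in PBS (median 1.91), and 6 higher and 0 lower in 7-day than in 3-day WGP (median 0.81). The median was 1.22 at 7 days within Xist cells, and 1.13 between the WGP libraries within chromosome Y cells. Gbp2, a guanylate-binding protein that attacks the vacuoles of intracellular microbes, was at 49.4 CPM in PBS, 244 CPM in 3-day WGP and 729 CPM in 7-day WGP, with a UMI in 10 of 53, 48 of 74 and 166 of 203 cells. In PBS, 1 cell held 41.4% of its 29 UMIs. Its log2 ratio to PBS was 2.31 (1.74 to 2.92) at 3 days and 3.88 (3.35 to 4.47) at 7 days, and 2.39 at 7 days within Xist cells. After thinning it was found in 1.89%, 14.9% and 39.9% of members and in 4.09%, 4.43% and 13.1% of T cells, so the PBS share was not above that of T cells. Igtp, an immunity-related GTPase, was at 35.8 CPM in PBS, 72.7 CPM in 3-day WGP and 189 CPM in 7-day WGP. Irf1, a transcription factor of the interferon response, was at 57.9 CPM in PBS, 139 CPM in 3-day WGP and 299 CPM in 7-day WGP. Gbp7, another guanylate-binding protein, was at 44.3 CPM in PBS, 106 CPM in 3-day WGP and 187 CPM in 7-day WGP. Fcgr4, an activating Fc receptor for IgG, was at 32.4 CPM in PBS, 130 CPM in 3-day WGP and 220 CPM in 7-day WGP. For these 5 genes the 7-day level was the highest, and the guanylate-binding proteins have close copies between which reads can be split, while their log2 ratios to PBS at 7 days ran from 2.08 for Gbp7 to 3.88 for Gbp2. Within Xist cells they were 1.28 for Gbp7, 1.71 for Igtp, 2.07 for Fcgr4 and 2.11 for Irf1. The gene of this list called lower at 3 days was Cxcl10. This chemokine, which attracts CXCR3-bearing T cells, was at 237 CPM in PBS, 28.4 CPM in 3-day WGP and 653 CPM in 7-day WGP. In PBS, 122 of its 139 UMIs were in a single cell, and it was found in 3 of 53, 7 of 74 and 63 of 203 cells. Its 7-day ratio to PBS was 0.81 on the log2 scale within Xist cells.

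Ly6a, the gene of the Sca-1 antigen and also on the interferon-gamma list, was low in both PBS and 3-day WGP. It was at 15.3 CPM in PBS, 24.2 CPM in 3-day WGP and 426 CPM in 7-day WGP, with a UMI in 6 of 53, 10 of 74 and 109 of 203 cells. The PBS and 3-day levels could not be told apart at this depth (log2 ratio 0.66, -0.51 to 1.96), whereas 7-day WGP was higher than PBS by 4.80 (3.87 to 5.93) and than 3-day WGP by 4.14 (3.54 to 4.80). The ratios were 4.38 within Xist cells and 4.61 within chromosome Y cells. Its neighbour in the Ly6 family, Ly6i, was at 51.1 CPM in PBS, 86.3 CPM in 3-day WGP and 326 CPM in 7-day WGP, while Ly6e stayed level at 1959 CPM, 2064 CPM and 2274 CPM. Of the 3 family members outside the rule, 2 were called higher at 7 days and 0 at 3 days. B and T cells carry Ly6a themselves (44.8% and 20.1% of them in PBS after thinning), so they give no background share for it.

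Promoter sequences are shown for 5 of these genes because the list members were higher together. The 5 were picked because their promoters hold short motifs tied to MHC class II or interferon-induced genes. The sequences are from RefSeq on GRCm38.p6, run 5′ to 3′ on the strand of the gene, and cover the 120 bases before the annotated start. Capitals mark a motif. In H2-Aa (chr17:34287824-34287943, minus strand) and H2-Eb1 (chr17:34305747-34305866, plus strand) it is the core of the Y box, CTGATTGG, part of the module through which the MHC class II genes are activated. In Gbp7 (chr3:142530216-142530335, plus strand) and Igtp (chr11:58199436-58199555, plus strand) it is the core of the interferon-stimulated response element, which reads GAAA, 2 bases of any kind, and GAAA, in Gbp7 as its reverse complement. In Irf1 (chr11:53769894-53770013, plus strand) it is the core of the gamma-activated site, TTCNNNGAA.
H2-Aa: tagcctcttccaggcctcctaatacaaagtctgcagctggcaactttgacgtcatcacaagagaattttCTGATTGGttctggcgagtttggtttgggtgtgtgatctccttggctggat
H2-Eb1: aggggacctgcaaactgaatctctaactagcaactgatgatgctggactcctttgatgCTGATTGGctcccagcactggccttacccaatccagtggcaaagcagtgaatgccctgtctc
Gbp7: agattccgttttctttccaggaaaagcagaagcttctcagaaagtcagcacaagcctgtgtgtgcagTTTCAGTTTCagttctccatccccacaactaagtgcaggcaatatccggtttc
Igtp: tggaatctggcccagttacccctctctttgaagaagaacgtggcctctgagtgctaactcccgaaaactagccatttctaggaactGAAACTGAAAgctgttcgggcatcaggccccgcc
Irf1: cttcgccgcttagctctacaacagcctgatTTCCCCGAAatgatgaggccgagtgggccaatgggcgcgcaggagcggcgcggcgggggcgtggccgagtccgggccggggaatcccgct

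The motifs were searched on both strands of the 250 bases before each start, and the gamma-activated site reads the same on either strand. Of 32536 such windows, 3.80% held the Y box core, 2.98% the interferon-stimulated response element core and 7.04% the gamma-activated site core. Of the 16 genes of the interferon-gamma list with a window in this count, 11 held the response element core and 8 the gamma-activated site core. Of the 6 MHC class II list genes with a window in this count, 2 held the Y box core. These list counts leave out the chromosome that carries Cd74 and Iigp1, while the 32536 windows include it. Both lists were put together by pathway, with earlier results of these data known, and the type I interferon list was not searched. The counts are therefore no test of which interferon acted. A match is a description of the letters in the window, and binding was not measured.

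Genes of the type I interferon list did not share the 3-day step. Of 18 members compared, 1 was called higher and 1 lower in 3-day WGP than in PBS (median -0.21), 3 higher and 0 lower in 7-day WGP than in PBS (median 0.25), and 3 higher and 0 lower in 7-day than in 3-day WGP (median 0.52). Isg15, a ubiquitin-like protein induced by interferon, was at 181 CPM in PBS, 95.8 CPM in 3-day WGP and 230 CPM in 7-day WGP. Ifit3, an antiviral protein, was the gene called lower at 3 days, at 93.7 CPM in PBS, 15.8 CPM in 3-day WGP and 51.5 CPM in 7-day WGP, and 1 cell held 49.1% of its 55 UMIs in PBS. Of 13 MHC class I genes, 2 were called higher at 3 days and 3 at 7 days (medians 0.43 and 0.82), among them H2-Q7, a nonclassical class I gene, at 42.6 CPM in PBS, 156 CPM in 3-day WGP and 210 CPM in 7-day WGP. H2-Q7 has close copies among the H2-Q genes, between which reads can be split.

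Over all 2852 genes, 2.91% were called higher at 3 days and 3.4% at 7 days, and the other programs are given beside those shares. Of 18 genes of Fc receptors and lysosome, 3 were called higher at each time (medians 0.41 and 0.45). Of 19 transcription factors, 3 were called higher at each time (0.24 and 0.17). In both lists that is a larger share than over all genes, but the lists were chosen with earlier results of these data known. The gap is therefore no test of these programs. Hif1a, the hypoxia-inducible transcription factor, was at 80.1 CPM in PBS, 214 CPM in 3-day WGP and 309 CPM in 7-day WGP, and was the gene of the glycolysis and hypoxia list called higher at 3 days, of 13 compared. At 7 days that list had 2 called higher, with a median of 0.29. The antioxidant and NADPH oxidase list had 0 of 17 genes called at 3 days and 1 at 7 days. Of 5 Ms4a membrane proteins 1 was called higher at each time, Ms4a6d, at 119 CPM in PBS, 384 CPM in 3-day WGP and 343 CPM in 7-day WGP. The 5 macrophage maturation genes outside the rule had 0 called at 3 days, and 1 higher and 1, Cx3cr1, lower at 7 days. Ramp1, a subunit of the receptor for the neuropeptide CGRP, was at 273 CPM in PBS, 101 CPM in 3-day WGP and 96.2 CPM in 7-day WGP. Hpgd, an enzyme that inactivates prostaglandins, was likewise highest in PBS, at 184 CPM against 60.0 CPM in 3-day WGP and 66.1 CPM in 7-day WGP.

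**Figure D3:**
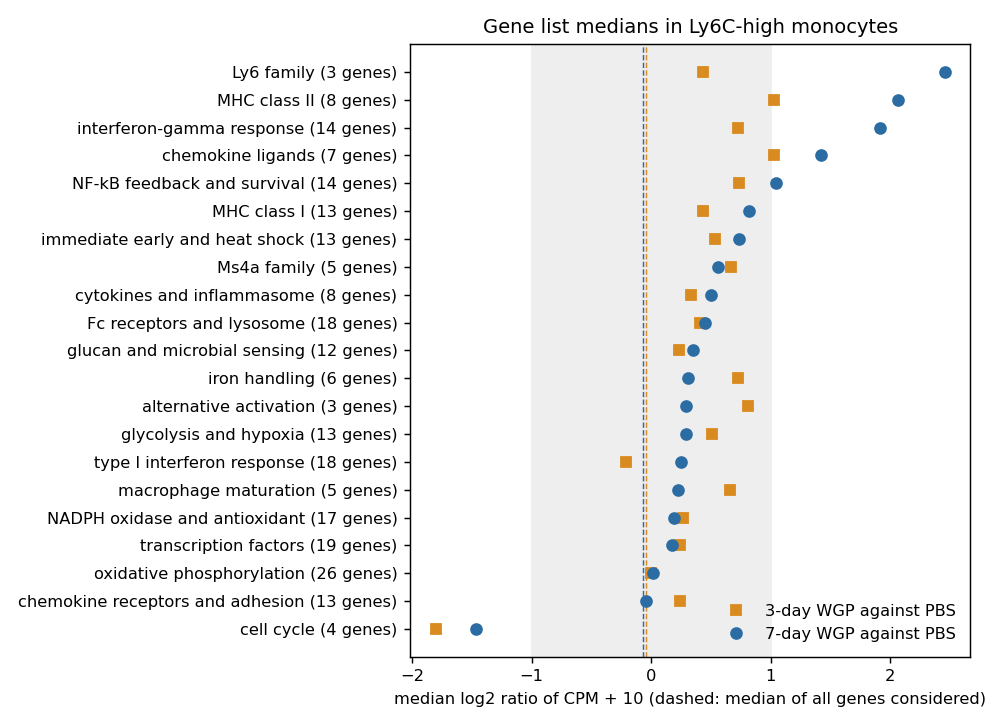
Median log2 ratio of CPM + 10 (horizontal axis) over the genes of each list in Ly6C-high monocytes, for 3-day WGP against PBS and 7-day WGP against PBS; the number of genes compared is beside each list, dashed lines are the medians of all 2852 genes, and the grey band is the range below 2-fold. The 7-day medians of the Ly6 family, MHC class II and interferon-gamma lists are 2.46, 2.07 and 1.91, oxidative phosphorylation lies at 0.02, and the 4 cell cycle genes lie lowest at -1.80 and -1.47.

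Several genes of patrolling monocytes were lower after WGP, and the 10 genes of that list summed to 1566 CPM in PBS, 896 CPM in 3-day WGP and 711 CPM in 7-day WGP. Of 8 list members compared, 3 were called lower in 3-day WGP and 5 in 7-day WGP than in PBS, and 0 higher (medians -0.83 and -1.17, and -0.82 at 7 days within Xist cells). Ear2, a secreted ribonuclease, was at 259 CPM in PBS, 22.1 CPM in 3-day WGP and 37.4 CPM in 7-day WGP, and was found in 23 of 53, 13 of 74 and 32 of 203 cells. The log2 ratio to PBS was -3.55 (-4.28 to -2.89) at 3 days and -2.79 (-3.21 to -2.39) at 7 days, and -1.83 at 7 days within Xist cells. Ace, the gene of angiotensin-converting enzyme, was at 158 CPM in PBS, 19.0 CPM in 3-day WGP and 24.3 CPM in 7-day WGP. Spn, the gene of the sialoglycoprotein CD43, was at 135 CPM in PBS, 29.5 CPM in 3-day WGP and 49.1 CPM in 7-day WGP. Nr4a1, which is also an immediate early gene, stood out of this order at 285 CPM in PBS, 387 CPM in 3-day WGP and 286 CPM in 7-day WGP. The PBS cells thus held more of Ear2, Ace and Spn while meeting the same limits on Ly6c2 and Ccr2. Cells gated as Ly6C-low patrolling monocytes, with no Ly6c2 and at least 2 UMIs of Ear2, Ace and Treml4, numbered 52 in PBS, 31 at 3 days and 36 at 7 days.

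Among single cells, the levels of MHC class II varied far more than those of Plac8. The summed UMIs of H2-Aa, H2-Ab1 and H2-Eb1 had a median of 0.347 per 10000 UMIs in PBS, 6.76 at 3 days and 55.8 at 7 days. Cells with at least 30 of these UMIs numbered 10 of 53 (18.9%) in PBS, 23 of 74 (31.1%) in 3-day WGP and 112 of 203 (55.2%) in 7-day WGP. Plac8 had medians of 49.3, 43.4 and 53.6 per 10000 UMIs. The interferon-gamma list had medians of 7.52 in PBS, 15.7 at 3 days and 33.8 at 7 days, and it was found in 52 of 53, 73 of 74 and 203 of 203 cells. MHC class II was found in 27 of 53, 56 of 74 and 171 of 203 cells and left the others at 0.

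**Figure D4:**
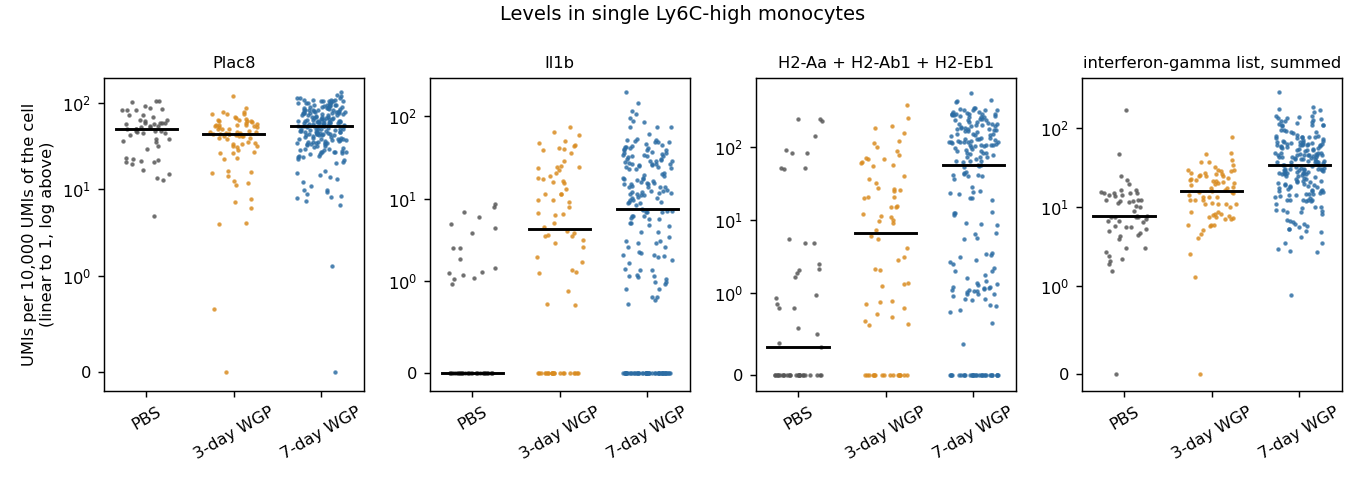
UMIs per 10000 UMIs of the cell (linear to 1, log above) of Plac8, Il1b, the sum of H2-Aa, H2-Ab1 and H2-Eb1, and the sum of the interferon-gamma list; each point is a Ly6C-high monocyte of PBS, 3-day WGP or 7-day WGP, spread sideways at random, and bars are medians. Plac8 is level, the Il1b median leaves 0 after WGP, and MHC class II has cells at 0 and cells above 100 in every library with medians of 0.347, 6.76 and 55.8.

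Within the 7-day library, cells with more MHC class II had less of several classical monocyte genes. The 112 cells with at least 30 MHC class II UMIs and the 91 cells with fewer had median depths of 10354.5 and 8960 UMIs, and 12 of the 203 cells lay between 20 and 39. Chil3, a chitinase-like secreted protein of classical monocytes, was at 260 CPM in the cells with more and at 1310 CPM in those with fewer. In the same order Fn1 was at 404 and 892 CPM, Plac8 at 4542 and 6394 CPM, and Vcan at 169 and 296 CPM. Ly6a stood the other way, at 642 CPM in the cells with more MHC class II and 116 CPM in those with fewer, as did Ly6i at 444 and 157 CPM and Ciita at 200 and 46.2 CPM. Gbp2, by contrast, was at 781 and 652 CPM, a narrow gap next to that of Ly6a. Cxcl10 was at 310 CPM in the cells with more and 1146 CPM in those with fewer. These are values within 1 library, and the cells share that library. Of the 203 cells, 17 held at least 3 UMIs of the dendritic cell genes Flt3, Zbtb46 and Cd209a. A cell with 38 of these UMIs held 526 MHC class II UMIs and none of Chil3. Neither the split nor the correlations below were repeated without such cells, and their part in the differences was not tested. Across the 203 cells of 7-day WGP, Spearman's rho with MHC class II per 10000 UMIs was -0.50 for Chil3, -0.42 for Plac8, 0.51 for Ciita and 0.48 for Ly6a. Across the 74 cells of 3-day WGP it was -0.22, 0.03, 0.68 and 0.22 for the same genes, and across the 53 cells of PBS -0.32, -0.07, 0.52 and 0.15. The relation of Plac8 to MHC class II was thus seen at 7 days and was near 0 in the other libraries. Fn1 was at 1120 CPM in the 23 cells of 3-day WGP with at least 30 MHC class II UMIs and 1298 CPM in the others, and in PBS at 1393 CPM in 10 such cells and 951 CPM in the others, the reverse of the 7-day order.

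Several of the largest ratios rested on few cells. Besides the neutrophil genes given above, the 7 progenitor genes summed to 1068 CPM in PBS, 127 CPM in 3-day WGP and 108 CPM in 7-day WGP. S100a8 and S100a9, which encode the calprotectin subunits of neutrophils and some monocytes, were at 6242 and 6758 CPM in 3-day WGP against 13.6 and 6.82 CPM in PBS and 68.5 and 54.4 CPM in 7-day WGP. In 3-day WGP, 1 cell held 58.7% of the UMIs of this pair (7250 UMIs) and another held 4522, and 16 of 74 cells had any. Camp, Ngp and Ltf, granule genes of maturing neutrophils, were found in 2 or 3 of the 74 cells. Mpo, Ctsg and Prtn3, granule genes of myeloid progenitors, were at 271, 235 and 511 CPM in PBS, with the highest cell holding 62.3%, 52.2% and 41.0% of their UMIs. Mpo was at 0 in 3-day WGP and at 5.83 CPM in 7-day WGP. Proliferation genes followed the same form, with Stmn1, a microtubule regulator, at 210 CPM in PBS, 22.1 CPM in 3-day WGP and 41.3 CPM in 7-day WGP on 7, 3 and 11 cells. Retnla, a secreted product of alternatively activated macrophages, had 157 of its 159 UMIs of PBS in a single cell. Members with at least 20 UMIs of the calprotectin pair, of 4 progenitor genes or of 5 proliferation genes, or at least 3 UMIs of the dendritic cell genes Flt3, Zbtb46 and Cd209a, numbered 10 of 53 in PBS, 13 of 74 in 3-day WGP and 20 of 203 in 7-day WGP. Without them Il1b, Gbp2 and H2-Aa kept their direction in both comparisons with PBS, whereas S100a9 and Prtn3 did not.

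**Figure D5:**
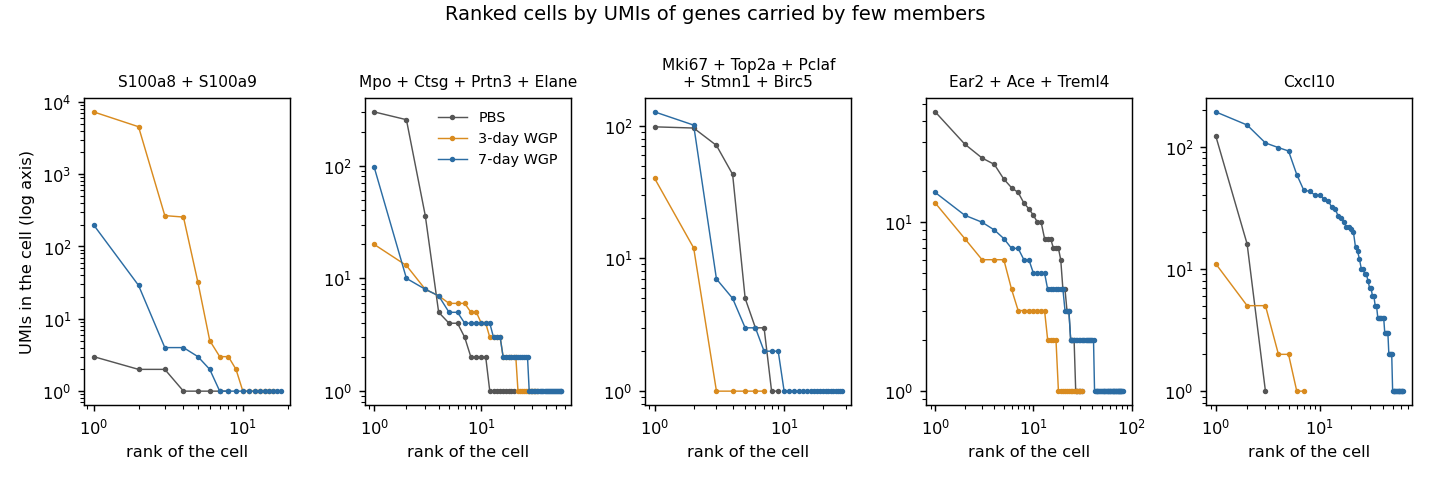
UMIs per cell (log axis) against the rank of the cell (log axis) for 5 sets of genes in Ly6C-high monocytes of PBS, 3-day WGP and 7-day WGP; only cells with at least 1 UMI are drawn. The calprotectin genes of 3-day WGP drop from 7250 and 4522 UMIs in the first cells to 267 and 255 in the next, progenitor and proliferation genes are carried by up to 4 cells at 20 UMIs or more, Ear2, Ace and Treml4 decline without such a drop, and Cxcl10 of 7-day WGP is spread over 63 cells against 3 in PBS.

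The gates nearest to Ly6C-high monocytes were compared with them within each library, as a description, since the gates themselves were drawn on genes of the same cells. Against Ly6C-low patrolling monocytes, 20 of 2991 genes (0.669%) were at least 2-fold higher in Ly6C-high monocytes in each of 3 libraries and 36 genes (1.2%) were lower. Lyz2 was higher in Ly6C-high monocytes, at 26998, 27963 and 28014 CPM against 7282, 7621 and 11249 CPM, as was Chil3, at 561, 990 and 691 CPM against 74.3, 215 and 88.4 CPM. Mgl2, a galactose-binding lectin of dendritic cells and macrophages, was lower, at 8.52, 2.11 and 2.91 CPM against 575, 97.9 and 150 CPM. That gate may be mixed. The 2 conventional dendritic cell genes compared had a median of -1.49, with 0 lower by 2-fold in every library. In 3-day WGP the gate held Cxcl2 at 7126 CPM and Tnf at 798 CPM, against 463 and 19.0 CPM in Ly6C-high monocytes. The part of other cells in the differences from this gate was not tested. Against resident macrophages, defined by C1q, 50 of 2947 genes (1.7%) were higher and 122 genes (4.14%) lower in each of 3 libraries. Plac8 was higher in Ly6C-high monocytes at 4495, 4163 and 5302 CPM against 35.6, 127 and 975 CPM, and Pf4, the gene of platelet factor 4, was lower at 5.11, 9.48 and 1.46 CPM against 1855, 858 and 254 CPM.

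The cells with Arg1 or with Ccl5, Cxcl9 and Nos2 could be compared only after WGP, as PBS held 5 and 3 of them. Against Arg1 macrophages, with at least 2 UMIs of the arginase gene, 103 of 2862 genes (3.6%) were higher in Ly6C-high monocytes and 192 genes (6.71%) lower in both WGP libraries. Saa3 was at 386 and 122 CPM in Ly6C-high monocytes against 24032 and 15979 CPM in Arg1 macrophages. Ms4a4c, a membrane protein of monocytes, was higher in Ly6C-high monocytes, by 3.85 on the log2 scale on average. Against the inflammatory cells with at least 5 UMIs of Ccl5, Cxcl9 and Nos2, compared in 7-day WGP alone, 27 of 2754 genes (0.98%) were higher in Ly6C-high monocytes and 71 genes (2.58%) lower. Vcan was at 221 against 39.8 CPM and Chil3 at 691 against 165 CPM, both higher in Ly6C-high monocytes, and 8 of 21 interferon-gamma list genes were lower in them, with a list median of -0.75. That gate also held RNA of other cells. All 3 NK cell genes compared (median -3.70) and all 4 erythroid genes (median -5.87) were lower in Ly6C-high monocytes, with the granzyme gene Gzma at 1.94 against 331 CPM and the globin gene Hbb-bs at 9.23 against 2054 CPM. The part of such cells in the other differences from this gate was not tested. Of the 13 classical monocyte genes outside the rule, 7 were higher than in patrolling monocytes, 9 than in resident macrophages, 8 than in Arg1 macrophages and 6 than in the inflammatory cells. In the other direction, 1 was lower than in Arg1 macrophages, and 0 were lower than in each of the other gates. The gap to the inflammatory cells depends on the limit of 5 UMIs. In 7-day WGP 164 barcodes met every other term of the rule and failed that limit alone.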

How the data were processed

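Per the labels and the study's methods, CD45+ cells of pancreas were captured with 10x Genomics 3′ chemistry, and the authors made the deposited UMI counts with Cell Ranger 3.1.0 on mm10. The deposited count matrices are raw, with 31053 genes and 6794880 barcodes, so cells were selected here by the UMI and gene limits given above, and no cluster was drawn. Neither counts nor labels were changed by a doublet caller, and removal of high simulated-doublet scores was an alternative. The members and gene lists were chosen with earlier results of these data known.

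Counts were summed over members and scaled to CPM. A gene was called at 2-fold on CPM + 10, with a mean of at least 50 CPM. Single-gene ratios carry conditional exact binomial intervals, levels exact Poisson intervals, shares Clopper-Pearson intervals at 95%, and ratios of library shares a normal interval on the log scale. Share ratios within Xist or chromosome Y barcodes carry conditional exact binomial intervals instead. All of these intervals cover counting error only. For the ratio of a single gene, any count under 3 UMIs was raised to a floor of 3 UMIs. Free RNA came from barcodes of at most 100 UMIs. Shares of cells with a UMI used cells thinned to 1000 UMIs, with B and T cells as background. Genes were named where they were rule or marker genes, among the 20 most abundant outside mitochondrial and ribosomal-protein genes, among the 10 highest or lowest called ratios of a comparison that also exceeded free RNA 2-fold, or members of a list that were called or among its 5 most abundant. Genes of comparison gates and of the few-cell programs were named after their values were seen. Python 3.11.15, NumPy 2.4.6, SciPy 1.17.1, pandas 2.3.3, scikit-learn 1.9.0, matplotlib 3.10.9, R 4.3.3 and edgeR 4.0.16 (for TMM factors alone) were used, and the scripts were tested on simulated data. Alternatives changed the barcode filters, the scaling, the added 10 CPM, the filter, the weight of a cell and the free RNA. Of the rule, they changed the limits on Ly6c2, on Arg1 with C1q, and on Ccl5, Cxcl9 and Nos2. The limits on Ccr2, Csf1r, Cd79a, Cd3e with Cd3d, and Siglech were not changed. Some list members are counted with their list and are not reported here by name.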

Additional observations from a re-analysis of the deposited data

Results flagged for a closer look

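Cxcl10 differed in direction between the times. It was lower in 3-day WGP than in PBS, with a log2 ratio of -3.06 (-3.71 to -2.46), and higher in 7-day WGP than in PBS, with 1.46 (1.21 to 1.73). The difference was not tested, both ratios share the PBS cells, and 87.8% of the PBS UMIs of Cxcl10 were in 1 cell.

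The share of Ly6C-high monocytes in 3-day WGP against PBS had a log2 ratio of -1.46 (-3.40 to -0.01) among Xist barcodes and 3.44 (1.80 to 5.77) among chromosome Y barcodes. The difference was not tested, and the values rest on 4 Xist members in 3-day WGP and 3 chromosome Y members in PBS.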

How the results depend on the processing

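Of 36 shares recomputed under alternatives, 28 stayed within their interval. With Arg1 and C1q of at most 1 UMI allowed, the share was 2.15% at 3 days and 5.89% at 7 days. The 7-day share was 3.55% with no UMI of Ccl5, Cxcl9 and Nos2 allowed and 8.79% with no limit on them. Xist barcodes gave 2.31%, 0.835% and 6.62%, and chromosome Y barcodes gave 0.173% in PBS. The 7-day share was above the PBS share in each of these settings.

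The counts of called genes, 119, 133 and 37 (3-day against PBS, 7-day against PBS, 7-day against 3-day WGP), were 303, 254 and 106 after thinning to 3000 UMIs, 69, 73 and 22 with 50 CPM added, 338, 318 and 80 with a filter at 10 CPM, and 427, 363 and 96 with no filter beyond 1 UMI. Without the limit on Ccl5, Cxcl9 and Nos2 the 2 counts with 7-day WGP were 210 and 69. Xist cells gave 83 for 7-day WGP against PBS, and chromosome Y cells 69 between the WGP libraries, with fewer cells summed and the filter at 50 CPM set on those cells' own levels. With the genes of the full comparison kept instead, the same cells gave the higher and lower counts in the account of called genes above. Gene list medians stayed within the set limits in 1129 of 1239 recomputed values, and 0 called medians changed sign. Among named genes, a sign change was counted only for genes that were called. There were 17 among 2585 recomputed values, which include genes that were not called. In 3-day WGP against PBS, Prtn3 was 1.22 and Stmn1 0.90 without barcodes over 20000 UMIs, Prtn3 was 1.24 and H2-Eb1 -0.049 after thinning, H2-Eb1 was -0.13 with at least 4 Ly6c2 UMIs, and S100a9 was -0.86 and Prtn3 1.10 without the members that carry other programs. In 7-day WGP against PBS, Prtn3 was 0.087 without barcodes over 20000 UMIs, S100a8 was -0.62 and S100a9 -2.20 after thinning, S100a9 was -1.44 with at least 4 Ly6c2 UMIs, S100a8 was -0.59, S100a9 -1.36 and Prtn3 0.15 without the members that carry other programs, and S100a9 was -1.10 without its highest cell in each library. Between the WGP libraries, Ifit3 was -0.50 after thinning and Saa3 0.21 without the limit on Ccl5, Cxcl9 and Nos2. The cause of these shifts was not tested. Leaving out members with other programs and leaving out the highest cell were chosen after seeing the data.

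Comparisons within Xist or chromosome Y cells were not run where a library had fewer than 20 such members, which was so for both kinds in 3-day WGP against PBS. No paired analysis was possible because each group is 1 library. The 53 PBS cells limit the precision of every ratio to PBS, and differences between animals could not be assessed.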
